A study of Mus musculus with 12 samples.

Results

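Rod photoreceptors carry the retina's dim-light response, and 36 genes of their light-signalling cascade and outer segment are described here in the retinas of young mice after oxygen-induced retinopathy (OIR). The genes were chosen by name, from the known parts of the cascade, the outer segment, the matrix around it and the rod's transcription factors. Earlier results of these data were known when the choice was made, so the members' shares against all genes are descriptions. All 36 were found among the 57073 gene models of the deposited table, and 35 of them were among the 18275 genes with enough counts to be tested. RNA was sequenced from 12 retina libraries. C57BL/6 mice at postnatal day 17 gave 6 of them after normoxic air and 6 after 75% oxygen, and the design text calls the latter OIR mice. Both groups share strain, age and tissue, and the labels name no genetic change in either. The labels give neither the days of oxygen exposure nor whether each library came from a separate animal, so a p-value here is set against library-to-library spread that may be technical.

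In a rod, light changes a visual pigment, which switches on the G protein transducin. Transducin releases the brake on a cyclic GMP phosphodiesterase, cyclic GMP falls, and the cation channel that it holds open closes. Kinase, arrestin and the Rgs9 complex end the response, and guanylate cyclases with their calcium-sensing activators refill cyclic GMP. The proteins sit in and around a stack of membrane discs that is built on a modified cilium during the first postnatal weeks. In the OIR model, high oxygen stops growth of the retinal capillaries, and the return to room air leaves the inner retina short of oxygen before new vessels grow. The rods lie in the outer retina, which is fed mainly by the choroid.

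The rod genes differed little in size between the groups, and most of those that passed the test were higher in OIR. Of the 35 tested members, 16 passed an adjusted p of 0.05 in edgeR's quasi-likelihood test over all tested genes, 14 higher and 2 lower in OIR. In the same test 31.0% of all tested genes passed, 16.2% higher and 14.8% lower, against a members' share of 45.7%. That gap depended on the libraries used. Without normoxic replicate 2 the shares were 28.6% of members and 27.6% of all genes. Without normoxic replicate 3 they were 28.6% and 28.1%. With any other single library left out, the members' share ran from 31.4% (without OIR replicate 1) to 51.4% (without normoxic replicate 5). All genes stood at 28% and 31.8% in those fits. By limma on log2(FPKM + 1) 31.4% of members and 30.2% of all genes passed. Many members are abundant genes, and a share over genes of like abundance was not counted. The median log2 fold change (OIR minus normoxic) was 0.14 over the 35 members and -0.01 over all tested genes, but the median size regardless of sign was 0.14 for the members and 0.18 for all genes. A positive fold change was found for 26 of the 35 members (74.3%) and for 48.5% of all tested genes. Among the members that passed, the largest changes belonged to Impg2 and Impg1, proteoglycans of the matrix between photoreceptors and pigment epithelium, and to Rbp3, the retinoid-binding protein of the same space. The 2 members that fell were Pde6b, a catalytic subunit of the phosphodiesterase, and Fscn2, an actin-bundling protein of photoreceptors.

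**Figure D1:**
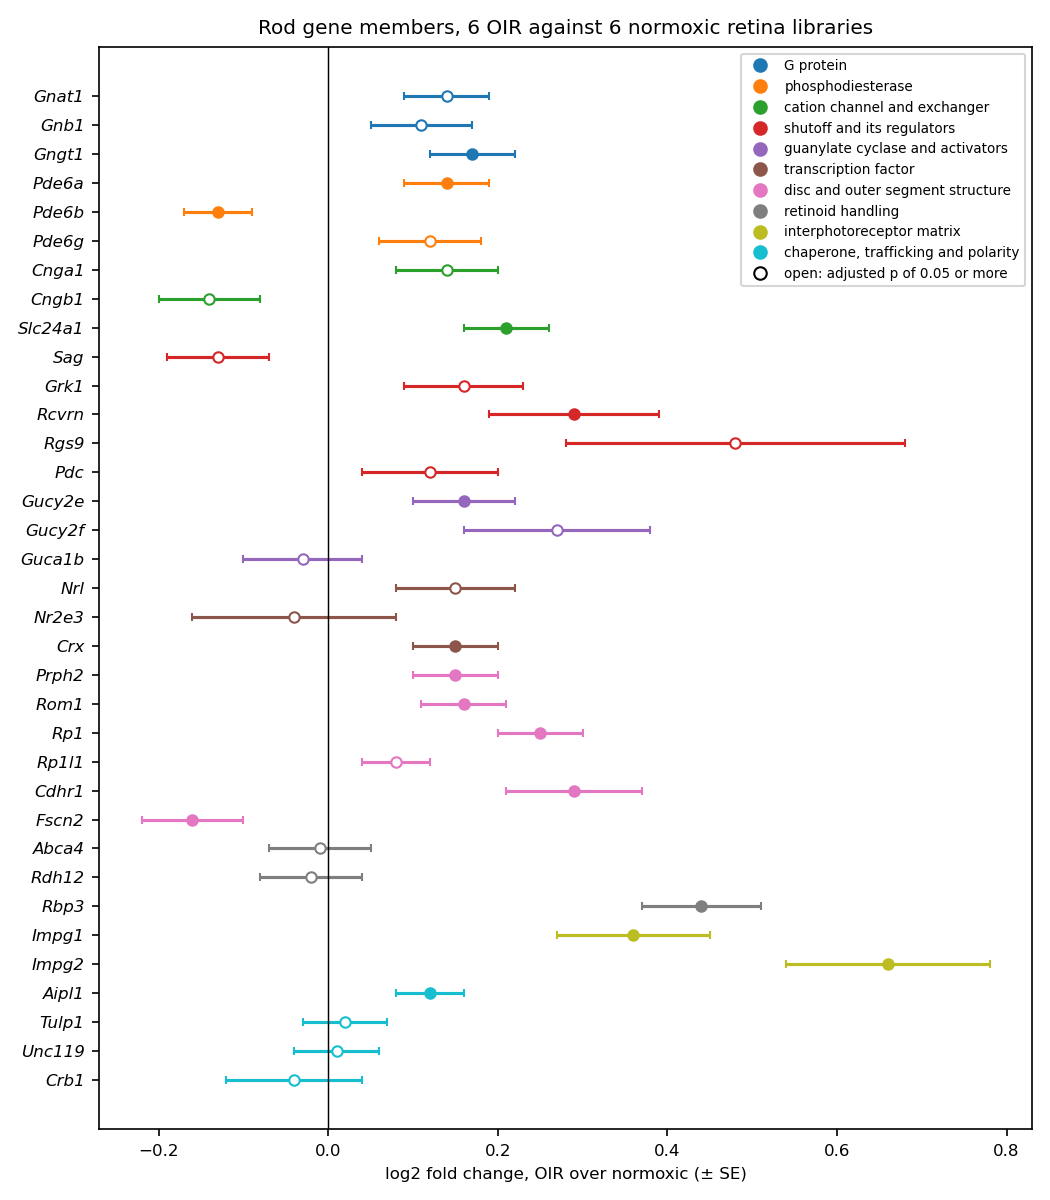
Log2 fold change of OIR over normoxic (x axis, ± SE) for the 35 tested rod genes, ordered and coloured by role, with filled points for an edgeR adjusted p under 0.05. Impg2 at 0.66 and Rbp3 at 0.44 lie farthest to the right among the filled points, and Pde6b at -0.13 and Fscn2 at -0.16 are the filled points left of 0.

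In most members the levels of the OIR and normoxic libraries overlapped. In 6 members every OIR library lay above every normoxic library (Rom1, Rp1, Cdhr1, Rbp3, Impg2 and Aipl1), and in 0 members every OIR library lay below. Over all tested genes the corresponding shares were 9.47% and 6.60%. Summed over the members, the share of a library's counts was 5.12% to 5.71% in normoxic libraries (median 5.58%) and 5.77% to 6.1% in OIR libraries (median 5.82%). These ranges did not overlap. In bulk tissue, more or fewer rods and more or less RNA per rod cannot be told apart, and a share of the total also moves with every other cell type.

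Libraries numbered 1 to 3 and libraries numbered 4 to 6 stood apart within each group, although the labels name no batch. Between the normoxic libraries numbered 1 to 3 and those numbered 4 to 6, 24 of the 35 members did not overlap, against 38.6% of all tested genes. Between the same sets of OIR libraries 16 of 35 did not overlap, against 19.4% of all tested genes. Within numbers 1 to 3, 27 members passed (23 higher, 4 lower) with a median log2 fold change of 0.16, and within numbers 4 to 6, 11 passed (9 higher, 2 lower) with a median of 0.10. Of all genes tested within numbers 1 to 3, 39.0% passed (20.3% higher, 18.6% lower), and within numbers 4 to 6, 20.0% did (11.6% higher, 8.36% lower). Past the threshold and higher in both sets were 7 members: Rcvrn, Gucy2e, Prph2, Rom1, Rp1, Rbp3 and Impg2. The share of all tested genes higher in both sets was not counted, so this number has no background to be read against. Whether the fold changes differ between the sets was not tested. The values within each set are therefore given beside the pooled values of the rod genes. With the set as a block, 24 members passed (21 higher, 3 lower), against 35.2% of all tested genes (18.3% higher, 16.9% lower), and the 8 members that passed there but not in the pooled test are named with that p.

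**Figure D2:**
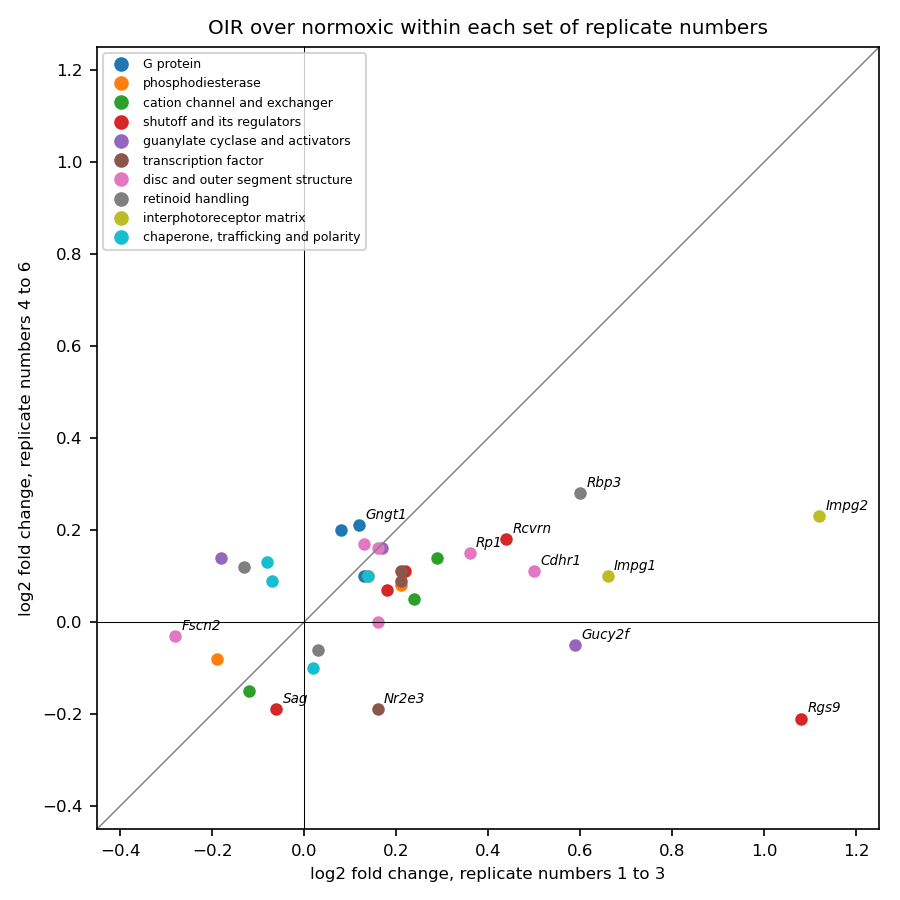
Log2 fold change of OIR over normoxic within replicate numbers 1 to 3 (x axis) and within replicate numbers 4 to 6 (y axis) for the 35 tested rod genes, coloured by role, with the line of equal values. Impg2 lies at 1.12 and 0.23, and Rgs9 lies at 1.08 on the x axis and -0.21 on the y axis, so the spread along x is wider than along y.

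RNA of other cell types moved with the groups. Lower in OIR were 9 of 12 bipolar cell markers (summed level 1651 to 1886 CPM, that is counts scaled to a common library total, in normoxic and 1208 to 1400 CPM in OIR libraries), 10 of 10 amacrine markers (1443 to 1553 against 938 to 1203 CPM), 5 of 10 ganglion cell markers (786 to 1126 against 570 to 827 CPM) and 3 of 5 tested horizontal cell markers (497 to 540 against 365 to 419 CPM). Higher were 9 of 10 endothelial markers (265 to 330 against 448 to 609 CPM), 8 of 10 microglial markers (74.9 to 88.7 against 167 to 225 CPM) and 4 of 4 tested red blood cell markers (55.9 to 133 against 115 to 236 CPM). Of 10 Muller glia markers, 2 were higher and 4 lower, with sums of 4469 to 5434 and 4438 to 5572 CPM. Within numbers 1 to 3 the Muller sum was lower in OIR (5356 to 5434 CPM in normoxic, 4438 to 4835 CPM in OIR libraries). Within numbers 4 to 6 it was higher in OIR (4469 to 4726 against 4906 to 5572 CPM). Of the 13 tested lens markers, 6 were lower and 0 higher, with sums of 14.0 to 78.5 CPM in normoxic and 7.45 to 27.4 CPM in OIR libraries, and Lim2 was at 0 in every library. Among 10 tested pigment epithelium markers 0 passed, but their sum was 26.5 to 28.1 CPM in normoxic libraries 1 to 3, 154 to 173 CPM in normoxic libraries 4 to 6, and 76.0 to 129 CPM in OIR libraries. With the mean log2 CPM of the lens markers as a covariate, 2 members (5.71%) still passed (Gngt1, adjusted p 0.0234, and Rbp3, adjusted p 0.0139, edgeR), against 16 without it. Of all tested genes 15.4% passed with that covariate, 9.29% higher and 6.09% lower. The lens level itself was lower in OIR (median sum 12.3 against 27.4 CPM), so the covariate partly follows the group and a lost call cannot separate them. Among members that lost the call, some log2 fold changes were larger with it (Rcvrn 0.36 against 0.29, Rom1 0.20 against 0.16). Others were smaller (Impg2 0.44 against 0.66, Impg1 0.26 against 0.36). The part of the other cell types, of lens and of pigment epithelium in the rod genes' values was not tested.

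Promoters of the members were searched for the letters that the rod regulators are known to bind. Crx, a homeodomain protein of photoreceptors, binds TAATCC, and Nrl, the factor that commits a cell to the rod fate, binds response elements with the core TGCTGA. In the 250 bases before the start site, taken from RefSeq sequences on build GRCm38.p6 and searched on both strands, TAATCC stood in 12 of the 31 promoters of the 29 members that had one (38.7%), and in 6.25% of all 32851 promoters. TGCTGA stood in 7 of the 31 (22.6%) and in 16.1% of all promoters. Both motifs stood in 3 of the 31 (9.68%) and in 0.962% of all, and their letters do not overlap each other. A match is a description of the letters in this window and not a bound site. The median log2 fold change was 0.14 for members with the Crx letters and 0.15 for members without them, and it was 0.01 with the Nrl letters and 0.15 without. Shown are 5 promoters, 5′ to 3′ on the gene's strand and ending at the base before the start, with the motif letters of either strand in capitals. Rbp3 (chr14:33953753-33954002) and Aipl1 (chr11:72037510-72037759) hold both motifs, Crx itself (chr7:15879956-15880205) holds 2 Crx matches, Pde6b (chr5:108388123-108388372), which fell, holds the Nrl letters, and Impg2 (chr16:56204063-56204312), which had the largest rise, holds neither.
Rbp3: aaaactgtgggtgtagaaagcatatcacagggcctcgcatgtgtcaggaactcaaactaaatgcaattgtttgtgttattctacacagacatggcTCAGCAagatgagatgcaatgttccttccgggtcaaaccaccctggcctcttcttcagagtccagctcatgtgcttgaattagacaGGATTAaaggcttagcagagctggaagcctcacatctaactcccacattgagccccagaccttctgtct
Aipl1: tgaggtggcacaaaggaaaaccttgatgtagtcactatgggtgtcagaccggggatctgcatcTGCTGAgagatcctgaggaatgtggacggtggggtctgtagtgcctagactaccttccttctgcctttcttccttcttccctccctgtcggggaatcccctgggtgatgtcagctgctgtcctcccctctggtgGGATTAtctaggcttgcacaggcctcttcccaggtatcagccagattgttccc
Crx: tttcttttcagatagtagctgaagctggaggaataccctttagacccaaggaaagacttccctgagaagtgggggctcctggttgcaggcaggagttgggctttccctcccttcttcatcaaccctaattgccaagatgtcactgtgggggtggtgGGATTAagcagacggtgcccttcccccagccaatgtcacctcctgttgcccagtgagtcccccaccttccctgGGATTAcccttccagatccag
Pde6b: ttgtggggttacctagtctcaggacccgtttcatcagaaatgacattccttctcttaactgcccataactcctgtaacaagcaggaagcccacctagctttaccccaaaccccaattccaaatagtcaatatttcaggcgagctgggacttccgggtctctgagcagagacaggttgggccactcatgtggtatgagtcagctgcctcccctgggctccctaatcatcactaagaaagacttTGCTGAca
Impg2: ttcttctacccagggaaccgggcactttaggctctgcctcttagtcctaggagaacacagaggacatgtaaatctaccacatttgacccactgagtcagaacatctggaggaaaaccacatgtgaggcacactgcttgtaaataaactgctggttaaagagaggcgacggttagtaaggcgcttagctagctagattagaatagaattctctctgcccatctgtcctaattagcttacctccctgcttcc

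Among the 3 transducin subunits, 1 passed the test. Gngt1, the rod gamma subunit (ENSMUSG00000029663, chromosome 6, 3993792 to 3997436, build GRCm39 here and for every gene position below), was at 350 CPM in the lowest, 362 in the median and 390 in the highest normoxic library, and at 365, 406 and 456 CPM in OIR. It rose by a log2 fold change of 0.17 ± 0.05 (SE), or 1.12-fold, with an adjusted p of 0.0197. The groups overlapped, and the call held with each of the 12 libraries left out in turn (highest adjusted p 0.0475). Within numbers 1 to 3 its fold change was 0.12 (adjusted p 0.0521) and within numbers 4 to 6 it was 0.21 (adjusted p 0.0133). Gnat1, the alpha subunit that activates the phosphodiesterase (ENSMUSG00000034837, chromosome 9, 107551673 to 107556911), was the most abundant member per gene length, with a normoxic mean of 3057 FPKM (counts scaled to gene length and library total) and rank 5 among all genes. Its level was 8872, 9045 and 10191 CPM in the lowest, median and highest normoxic library and 9527, 10064 and 11330 CPM in OIR. Its log2 fold change of 0.14 ± 0.05 had an adjusted p of 0.0557 and did not pass, with 0.08 (adjusted p 0.193) within numbers 1 to 3 and 0.20 (adjusted p 0.0153) within numbers 4 to 6. Gnb1, a beta subunit that other cells also use, had 0.11 ± 0.06 (adjusted p 0.179), with 0.13 (adjusted p 0.0285) within numbers 1 to 3 and 0.10 (adjusted p 0.207) within numbers 4 to 6. With the set block Gnat1 (adjusted p 0.0278) and Gnb1 (adjusted p 0.0379) passed.

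Of the phosphodiesterase subunits, one catalytic subunit rose and its partner fell. Pde6a, the alpha catalytic subunit (ENSMUSG00000024575, chromosome 18, 61353387 to 61422995), was at 955, 993 and 1075 CPM in the lowest, median and highest normoxic library and at 1029, 1110 and 1181 CPM in OIR. The log2 fold change of Pde6a was 0.14 ± 0.05 (1.11-fold, adjusted p 0.0218), with 0.21 (adjusted p 5.1e-04) within numbers 1 to 3 and 0.08 (adjusted p 0.324) within numbers 4 to 6. The groups overlapped, and the call ended without normoxic replicate 2, normoxic replicate 6 or OIR replicate 1 (adjusted p up to 0.0565). Pde6b, the beta catalytic subunit (ENSMUSG00000029491, chromosome 5, 108536257 to 108580263), was at 1827, 1932 and 2046 CPM in normoxic and at 1695, 1736 and 1862 CPM in OIR libraries. It fell by 0.13 ± 0.04 on the log2 scale (adjusted p 0.0244), with -0.19 (adjusted p 0.00124) within numbers 1 to 3 and -0.08 (adjusted p 0.314) within numbers 4 to 6. Here too the groups overlapped, and leaving out normoxic replicate 1 or OIR replicate 1 ended the call (adjusted p up to 0.0546). Pde6g, the inhibitory subunit that transducin displaces (ENSMUSG00000025386, chromosome 11, 120338431 to 120344326), was at 1859, 2209 and 2341 CPM in normoxic and 2137, 2284 and 2553 CPM in OIR libraries. Its log2 fold change of 0.12 ± 0.06 did not pass (adjusted p 0.184), with 0.14 (adjusted p 0.0439) within numbers 1 to 3 and 0.10 (adjusted p 0.17) within numbers 4 to 6, and it passed with the set block (adjusted p 0.0429).

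Slc24a1, the exchanger that carries calcium out of the outer segment (ENSMUSG00000034452, chromosome 9, 64830143 to 64858889), rose. Its level was 644, 675 and 751 CPM in the lowest, median and highest normoxic library and 737, 800 and 844 CPM in OIR, so the groups overlapped only at the edge. The log2 fold change was 0.21 ± 0.05 (1.16-fold, adjusted p 0.00288), 0.29 (adjusted p 5.9e-05) within numbers 1 to 3 and 0.14 (adjusted p 0.0784) within numbers 4 to 6. The call held without any 1 of the 12 libraries (highest adjusted p 0.00877). The subunits of the cyclic GMP-gated channel had opposite signs and did not pass in the pooled test, but did with the set block (adjusted p 0.0326 for Cnga1 and 0.0247 for Cngb1). Cnga1, the pore subunit, had 0.14 ± 0.06 (adjusted p 0.0804), with 0.24 (adjusted p 0.00111) within numbers 1 to 3 and 0.05 (adjusted p 0.595) within numbers 4 to 6. Cngb1, the modulatory subunit, had -0.14 ± 0.06 (adjusted p 0.0863), with -0.12 (adjusted p 0.0545) and -0.15 (adjusted p 0.0939) in the same sets.

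Partner genes were then compared within each library, as the ratio of one gene's counts to its partner's, which scaling to the library total cannot change. These 10 pairs were chosen after the values of their genes had been seen, so the ratios are given as a description with no test, and only their shift between groups can be read, since counts also depend on gene length. The ratio of Pde6a to Pde6b was 0.495 to 0.557 in normoxic libraries (mean 0.521 ± 0.0251, SD, n = 6) and 0.586 to 0.697 in OIR libraries (mean 0.633 ± 0.0424, SD, n = 6). The groups did not overlap, and the log2 difference was 0.40 within numbers 1 to 3 and 0.16 within numbers 4 to 6. The ratio of Cnga1 to Cngb1 was 0.922 to 1.00 in normoxic and 1.08 to 1.29 in OIR libraries, again without overlap, with log2 differences of 0.35 and 0.21 in the same sets. Pde6g to Pde6b was 0.961 to 1.26 in normoxic and 1.24 to 1.49 in OIR libraries, with an overlap. Of these subunit pairs, Pde6a to Pde6b and Cnga1 to Cngb1 were higher in every OIR library than in any normoxic one. How often the ratios of other gene pairs do not overlap was not counted, so non-overlap here has no background to be read against. The disc rim partners behaved differently: Prph2 to Rom1 was 1.80 to 1.93 in normoxic and 1.78 to 1.93 in OIR libraries, with a log2 difference of -0.01. Gnat1 to Gnb1 and Gngt1 to Gnb1 overlapped between the groups, with log2 differences of 0.03 and 0.05. Rp1 to Rp1l1 (3.61 to 3.97 against 4.00 to 4.50) and Impg2 to Impg1 (1.26 to 1.48 against 1.53 to 1.94) did not overlap, and Gucy2e to Gucy2f and Grk1 to Rcvrn did.

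**Figure D3:**
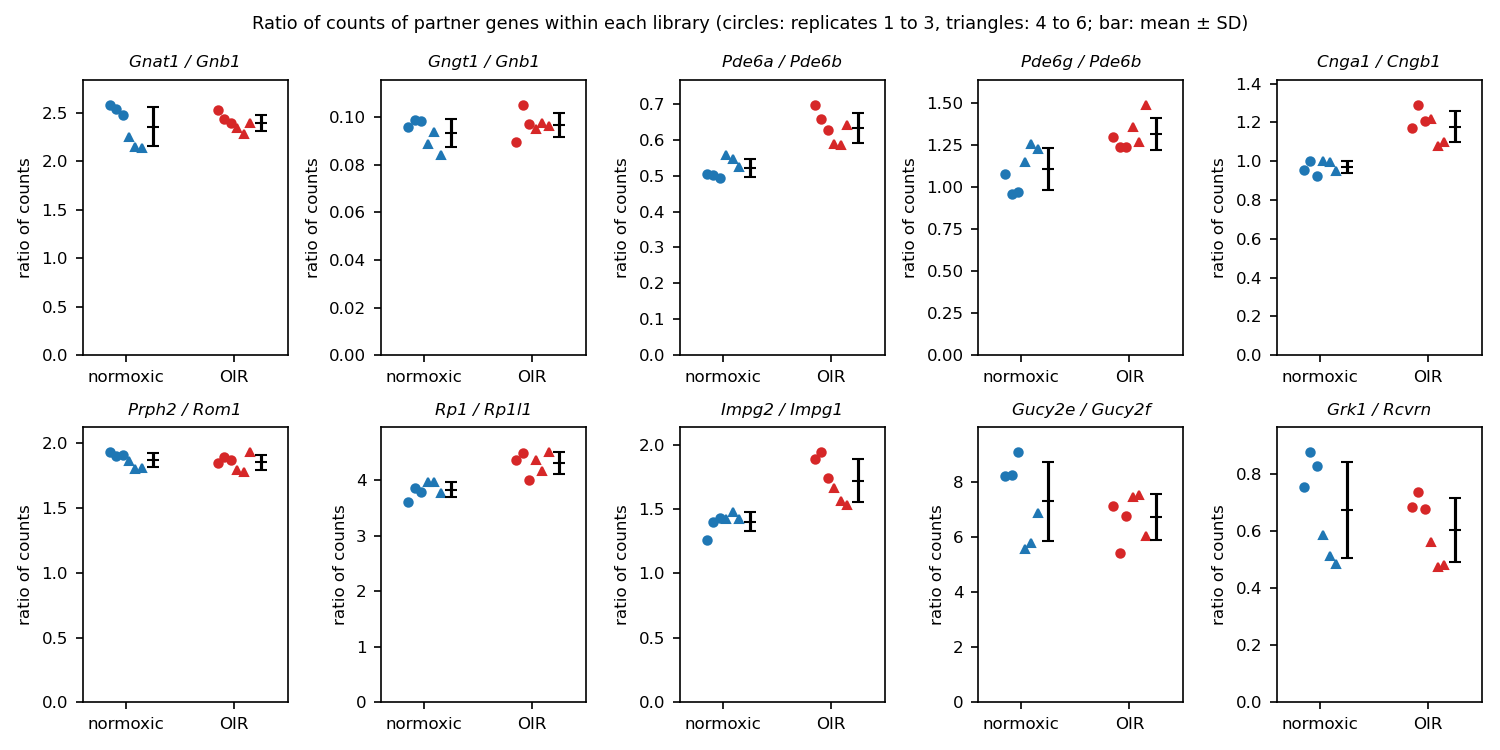
Ratio of counts of 10 pairs of partner genes in each library (y axis, from 0) for the normoxic and OIR groups, with circles for replicate numbers 1 to 3, triangles for 4 to 6 and bars for the mean ± SD. The Pde6a to Pde6b and Cnga1 to Cngb1 ratios are higher in every OIR library than in any normoxic library, while Prph2 to Rom1 covers about the same range in both groups.

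Among the 5 genes that end the light response or regulate its end, Rcvrn passed. Rcvrn, the calcium sensor that holds back the visual pigment kinase (ENSMUSG00000020907, chromosome 11, 67586152 to 67594159), was at 1044, 1325 and 1568 CPM in the lowest, median and highest normoxic library and at 1458, 1545 and 1825 CPM in OIR. For Rcvrn the log2 fold change was 0.29 ± 0.10 (1.22-fold, adjusted p 0.028), with 0.44 (adjusted p 1.9e-07) within numbers 1 to 3 and 0.18 (adjusted p 0.0412) within numbers 4 to 6. Normoxic libraries 1 to 3, at 1044 to 1190 CPM, lay below all others, and normoxic libraries 4 to 6 overlapped the OIR range. The call ended without normoxic replicate 1, 2 or 3 or OIR replicate 5 or 6 (adjusted p up to 0.0714). The Rcvrn model lies whole within Glp2r on the other strand, and reads from these genes cannot be told apart unless the counting used strand, and the strand setting is unknown here. Rgs9, the protein that speeds transducin's shutoff, had the largest fold change among the members that did not pass, 0.48 ± 0.20 (adjusted p 0.0738). Libraries ran from 26.2 to 44.1 CPM in normoxic and 27.6 to 74.1 CPM in OIR libraries, and its fold change was 1.08 (adjusted p 9.8e-07) within numbers 1 to 3 and -0.21 (adjusted p 0.246) within numbers 4 to 6. Grk1, the kinase itself, had 0.16 ± 0.07 (adjusted p 0.089), with 0.22 (adjusted p 5.4e-04) within numbers 1 to 3 and 0.11 (adjusted p 0.191) within numbers 4 to 6. Sag, the rod arrestin, had -0.13 ± 0.06 (adjusted p 0.113), with -0.06 (adjusted p 0.388) within numbers 1 to 3 and -0.19 (adjusted p 0.0269) within numbers 4 to 6. Pdc, which binds transducin's beta and gamma subunits, had 0.12 ± 0.08 (adjusted p 0.241), with 0.18 (adjusted p 0.00537) and 0.07 (adjusted p 0.437) in the sets. With the set block Grk1 (adjusted p 0.00535) and Pdc (adjusted p 0.0459) passed, and Sag did not (adjusted p 0.0535).

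Gucy2e, the main guanylate cyclase of photoreceptors (ENSMUSG00000020890, chromosome 11, 69108943 to 69127862), was at 383, 418 and 454 CPM in the lowest, median and highest normoxic library and at 417, 473 and 502 CPM in OIR. It rose by a log2 fold change of 0.16 ± 0.06 (1.12-fold, adjusted p 0.0323), with 0.17 (adjusted p 0.00234) within numbers 1 to 3 and 0.16 (adjusted p 0.036) within numbers 4 to 6. The pooled groups overlapped, numbers 1 to 3 were higher than 4 to 6 in both groups, and within each set every OIR library was above every normoxic one. Pooled, the call ended without normoxic replicate 4, 5 or 6 or OIR replicate 1, 2 or 3 (adjusted p up to 0.0842). Gucy2f, the second cyclase, did not pass (0.27 ± 0.11, adjusted p 0.0657), with 0.59 (adjusted p 5.4e-06) within numbers 1 to 3 and -0.05 (adjusted p 0.743) within numbers 4 to 6. Guca1b, a calcium-sensing cyclase activator, had -0.03 ± 0.07 (adjusted p 0.777), from values of opposite sign: -0.18 (adjusted p 0.00226) within numbers 1 to 3 and 0.14 (adjusted p 0.134) within numbers 4 to 6. Guca1a, the other activator (ENSMUSG00000023982, chromosome 17, 47705483 to 47711509), had 10 counts over all 12 libraries, 5 in each group, and was not tested. Its model shares 6023 of its 6027 bases with Gm50461 on the same strand, and Gm50461 had 0 counts. How reads on shared bases were counted is unknown here, so the Guca1a value is uncertain.

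Of the 3 transcription factors, Crx passed. Crx (ENSMUSG00000041578, chromosome 7, 15599872 to 15613893) was at 1141, 1268 and 1365 CPM in the lowest, median and highest normoxic library and at 1318, 1400 and 1481 CPM in OIR, with an overlap. Its log2 fold change was 0.15 ± 0.05 (1.11-fold, adjusted p 0.0425), with 0.21 (adjusted p 4.5e-04) within numbers 1 to 3 and 0.09 (adjusted p 0.169) within numbers 4 to 6. The call was the least steady of the higher members: it ended without normoxic replicate 1, 2 or 3 or OIR replicate 2, 3, 4, 5 or 6 (adjusted p up to 0.108). Nrl had 0.15 ± 0.07 (adjusted p 0.135), with 0.21 (adjusted p 7.7e-04) within numbers 1 to 3 and 0.11 (adjusted p 0.197) within numbers 4 to 6, and it passed with the set block (adjusted p 0.0078). Nr2e3, the nuclear receptor that holds cone genes down in rods, had -0.04 ± 0.12 (adjusted p 0.833), from opposite values in the sets. It was at 656 to 711 CPM in normoxic and 708 to 808 CPM in OIR libraries numbered 1 to 3 (log2 fold change 0.16, adjusted p 0.0135), and at 974 to 1056 CPM in normoxic and 849 to 931 CPM in OIR libraries numbered 4 to 6 (-0.19, adjusted p 0.0149).

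**Figure D4:**
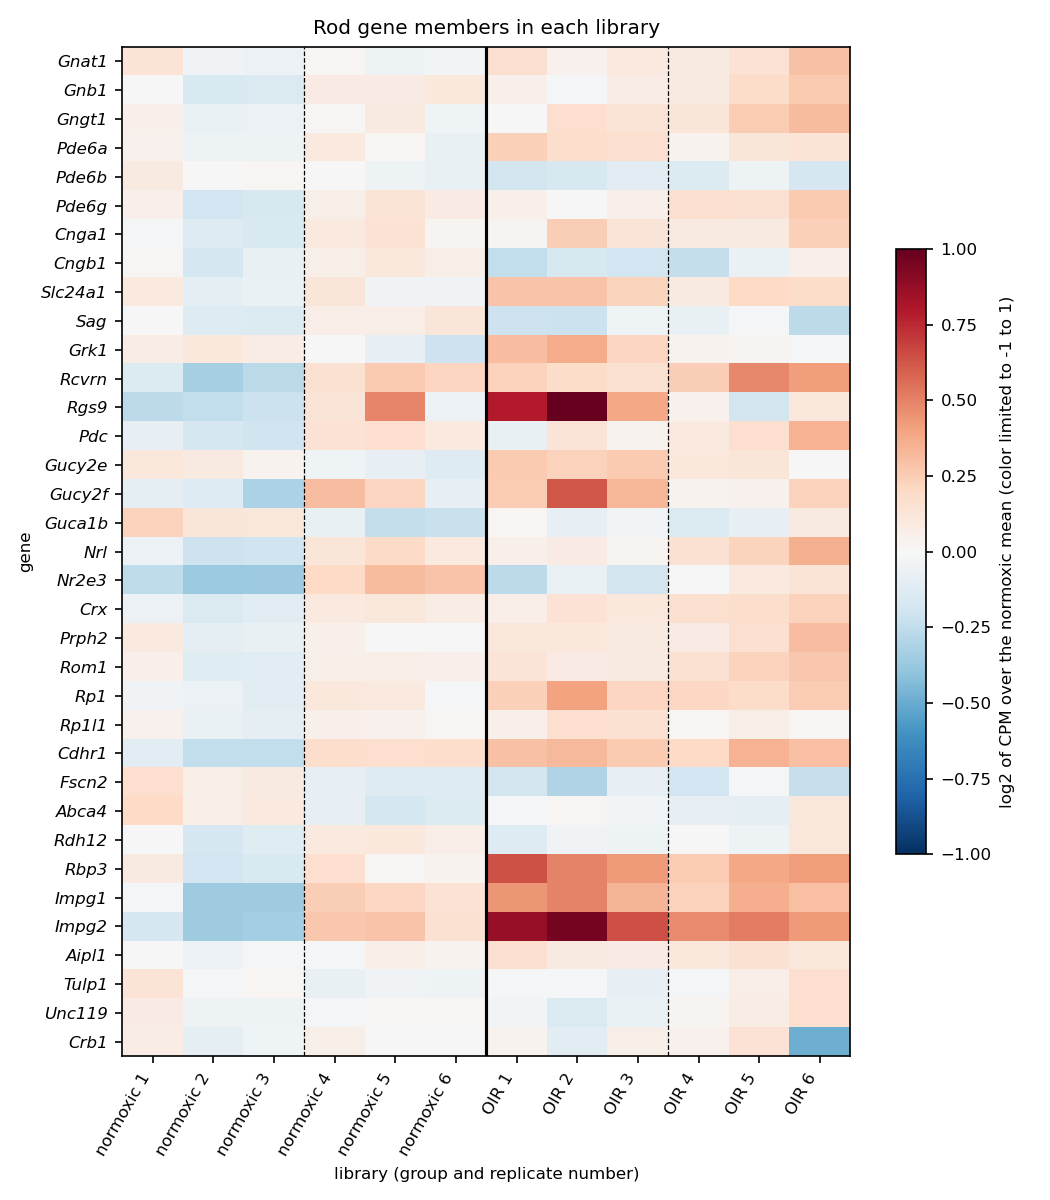
Log2 of CPM over the gene's normoxic mean (colour, limited to -1 to 1) for the 35 tested rod genes (rows) in each of the 12 libraries (columns), with a solid line between the groups and dashed lines between replicate numbers 1 to 3 and 4 to 6. Rbp3 and Impg2 are above the normoxic mean in all 6 OIR libraries, and Nr2e3 is below it in normoxic libraries 1 to 3 and above it in normoxic libraries 4 to 6.

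The genes of disc and outer segment structure held 5 of the 16 calls, 4 higher and 1 lower of 6 members. Rp1, a microtubule-binding protein of the outer segment axoneme (ENSMUSG00000025900, chromosome 1, 4069780 to 4479464), was at 1351, 1431 and 1563 CPM in the lowest, median and highest normoxic library and at 1652, 1704 and 1924 CPM in OIR, without overlap. The log2 fold change of Rp1 was 0.25 ± 0.05 (1.19-fold, adjusted p 9.1e-04), with 0.36 (adjusted p 4.1e-06) within numbers 1 to 3 and 0.15 (adjusted p 0.0362) within numbers 4 to 6. Cdhr1, a cadherin at the base of the outer segment where discs form (ENSMUSG00000021803, chromosome 14, 36799814 to 36820304), was at 777, 944 and 1042 CPM in normoxic and at 1060, 1132 and 1170 CPM in OIR libraries, without overlap. On the log2 scale Cdhr1 differed by 0.29 ± 0.08 (1.22-fold, adjusted p 0.00664), with 0.50 (adjusted p 1.3e-08) within numbers 1 to 3 and 0.11 (adjusted p 0.133) within numbers 4 to 6. Both calls held with each library left out in turn (highest adjusted p 0.003 for Rp1 and 0.0183 for Cdhr1). Rp1l1, a relative of Rp1 in the same axoneme, had 0.08 ± 0.04 (adjusted p 0.191), with 0.16 (adjusted p 0.00926) within numbers 1 to 3 and 0.00 (adjusted p 0.989) within numbers 4 to 6.

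Prph2 and Rom1, the tetraspanins that shape the disc rim, rose by similar amounts. Rom1 (ENSMUSG00000071648, chromosome 19, 8904755 to 8906720) was at 2046, 2298 and 2313 CPM in the lowest, median and highest normoxic library and at 2351, 2449 and 2671 CPM in OIR, without overlap. For Rom1 the log2 fold change was 0.16 ± 0.05 (1.12-fold, adjusted p 0.0228), and it was 0.16 within both sets (adjusted p 0.00862 and 0.0207). The call ended without normoxic replicate 2 or 3 (adjusted p up to 0.0573). Prph2 (ENSMUSG00000023978, chromosome 17, 47221385 to 47235859) was at 3888, 4161 and 4431 CPM in normoxic and at 4400, 4474 and 5144 CPM in OIR libraries, with the groups overlapping between 4400 and 4431 CPM. Its log2 fold change was 0.15 ± 0.05 (1.11-fold, adjusted p 0.038), with 0.13 (adjusted p 0.0372) and 0.17 (adjusted p 0.0416) in the sets. The Prph2 call ended without normoxic replicate 2, 3 or 6 or OIR replicate 5 or 6 (adjusted p up to 0.0846). Fscn2 (ENSMUSG00000025380, chromosome 11, 120252360 to 120258994) fell: it was at 116, 126 and 143 CPM in normoxic and at 103, 112 and 125 CPM in OIR libraries, with an overlap. The log2 fold change of Fscn2 was -0.16 ± 0.06 (adjusted p 0.0483), with -0.28 (adjusted p 3.9e-04) within numbers 1 to 3 and -0.03 (adjusted p 0.765) within numbers 4 to 6. That call ended without normoxic replicate 1, 2 or 3 or OIR replicate 1, 2, 4 or 6 (adjusted p up to 0.117).

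Of the 3 genes of retinoid handling, Rbp3 passed. Rbp3, which carries retinoids across the space between the photoreceptors and the pigment epithelium (ENSMUSG00000041534, chromosome 14, 33675960 to 33686173), was at 2210, 2558 and 2827 CPM in the lowest, median and highest normoxic library and at 3003, 3369 and 3924 CPM in OIR, without overlap. On the log2 scale Rbp3 differed by 0.44 ± 0.07 (1.36-fold, adjusted p 7.7e-05), with 0.60 (adjusted p 7.9e-08) within numbers 1 to 3 and 0.28 (adjusted p 0.00168) within numbers 4 to 6. It was the member that passed under all 24 alternatives run, the lens covariate included. Abca4, the flippase that clears retinal from the discs, did not pass (-0.01 ± 0.06, adjusted p 0.92), and its values had opposite signs in the sets, -0.13 (adjusted p 0.0258) within numbers 1 to 3 and 0.12 (adjusted p 0.167) within numbers 4 to 6. Rdh12, a retinal reductase, had -0.02 ± 0.06 (adjusted p 0.818), with 0.03 (adjusted p 0.688) and -0.06 (adjusted p 0.454) in the sets.

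Both proteoglycans of the interphotoreceptor matrix rose. Impg2 (ENSMUSG00000035270, chromosome 16, 56024676 to 56094119) was at 236, 302 and 368 CPM in the lowest, median and highest normoxic library and at 405, 452 and 585 CPM in OIR, without overlap. For Impg2 the log2 fold change was 0.66 ± 0.12 (1.58-fold, adjusted p 3.2e-04), with 1.12 (adjusted p 6.9e-12) within numbers 1 to 3 and 0.23 (adjusted p 0.00361) within numbers 4 to 6. Impg1 (ENSMUSG00000032343, chromosome 9, 80220612 to 80347534) was at 168, 224 and 255 CPM in normoxic and at 252, 274 and 302 CPM in OIR libraries, overlapping at the edge. Its log2 fold change was 0.36 ± 0.09 (1.29-fold, adjusted p 0.00615), with 0.66 (adjusted p 8.3e-08) within numbers 1 to 3 and 0.10 (adjusted p 0.198) within numbers 4 to 6. In both genes the normoxic libraries numbered 1 to 3 were the lower set (236 to 268 CPM for Impg2, against 336 to 368 CPM in numbers 4 to 6), and the OIR libraries numbered 1 to 3 were the higher set for Impg2 (473 to 585 CPM against 405 to 431 CPM). Both calls held with each library left out (highest adjusted p 0.00116 and 0.0178) and ended with the lens covariate (adjusted p 0.0709 and 0.205).

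Aipl1, the chaperone needed to fold the phosphodiesterase (ENSMUSG00000040554, chromosome 11, 71918789 to 71928335), was at 920, 956 and 997 CPM in the lowest, median and highest normoxic library and at 1013, 1034 and 1074 CPM in OIR, without overlap. The log2 fold change of Aipl1 was small, 0.12 ± 0.04 (1.09-fold, adjusted p 0.0275), with 0.14 (adjusted p 0.01) within numbers 1 to 3 and 0.10 (adjusted p 0.149) within numbers 4 to 6. The call ended without normoxic replicate 2, 3 or 4 or OIR replicate 1 or 5 (adjusted p up to 0.0668). The other members of this group did not pass, pooled or within either set, and each had opposite signs in the sets. Tulp1, which works in transport to the outer segment, had 0.02 ± 0.05, with -0.08 within numbers 1 to 3 and 0.13 within numbers 4 to 6. Unc119, a lipid-binding carrier of transducin, had 0.01 ± 0.05, with -0.07 and 0.09 in the sets. Crb1, a polarity protein at the outer limiting membrane, had -0.04 ± 0.08, with 0.02 and -0.10. Over all 19 tested members that did not pass, log2 fold changes ran from -0.14 to 0.48 and adjusted p from 0.0557 to 0.925, and the groups overlapped in each of the 19. Within numbers 1 to 3, 12 of these 19 passed, against 39.0% of all genes tested there. Within numbers 4 to 6, 3 did (Gnat1, Sag and Nr2e3), against 20.0%. Those shares cover all genes, whereas the 19 were picked for not passing the pooled test, which used the same libraries. The share among all genes that did not pass the pooled test was not counted.

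Per gene length, the normoxic levels of the members spanned a wide range. After Gnat1 followed Rom1 (mean 1466 FPKM, rank 9 among all genes), Prph2 (1384 FPKM, rank 10), Rcvrn (1262 FPKM, rank 11), Unc119 (975 FPKM, rank 12), Gnb1 (924 FPKM, rank 14) and Pde6g (920 FPKM, rank 15). The lowest tested members were Gucy2f (7.26 FPKM) and Rgs9 (4.92 FPKM). These 7 genes were thus among the 15 most abundant of the table in normoxic retina. The members lie on 16 chromosomes, with 7 on chromosome 11 and 4 each on chromosomes 1, 9, 14 and 17.

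Other photoreceptor genes were counted in 6 lists, in which 33 of 85 genes (38.8%) passed, 24 higher and 9 lower, against 31.0% of all tested genes (16.2% higher, 14.8% lower). These lists too were chosen with earlier results of these data known. Of 13 cone genes, 2 were higher, 2 lower and 9 did not pass. Whether the changes of those that passed arose in cones was not tested. Slc24a2, the cone exchanger, fell by 0.96 ± 0.13 on the log2 scale (adjusted p 1.7e-05, no overlap), and Gnb3, the cone transducin beta subunit, rose by 0.50 ± 0.08 (adjusted p 7e-05, no overlap). Arr3, the cone arrestin, fell by 0.70 ± 0.22 (adjusted p 0.0197), and its fold change was -1.27 within numbers 1 to 3 and 0.12 (adjusted p 0.202) within numbers 4 to 6. That Arr3 call ended without normoxic replicate 1, 2 or 3 (adjusted p up to 0.0548), the libraries at 385 to 420 CPM, while all others lay between 146 and 204 CPM. Of 10 other photoreceptor regulators, 5 were higher and 0 lower. Those with the smallest adjusted p were the nuclear receptor Esrrb (0.35 ± 0.06, adjusted p 4.4e-04), the bHLH factor Neurod1 (0.22 ± 0.05, adjusted p 0.00109) and the MADS-box factor Mef2d (0.21 ± 0.05, adjusted p 0.00296), each without overlap.

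Of 19 cilium, trafficking and disc genes, 5 were higher and 3 lower. Kif3a, a subunit of the kinesin that drives transport in the cilium, fell by 0.52 ± 0.08 (adjusted p 3.9e-05), Arl6, a small GTPase of the BBSome coat, rose by 0.75 ± 0.14 (adjusted p 3.4e-04), and Ift140, of the transport complex that returns cargo to the cell body, fell by 0.25 ± 0.06 (adjusted p 0.0049). Of 16 rod synapse genes, 5 were higher and 3 lower. Dag1, the dystroglycan of the synaptic cleft, rose by 0.53 ± 0.05 (adjusted p 7.3e-07), Cplx4, a complexin of ribbon synapses, rose by 0.29 ± 0.05 (adjusted p 3.9e-04), and Cabp4, a calcium-binding partner of the presynaptic channel, fell by 0.21 ± 0.04 (adjusted p 8.3e-04). Several of these genes are also used outside photoreceptors, Dag1 and Kif3a among them.

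Of 11 retinoid cycle genes, 3 were higher and 1 lower. Rlbp1, the retinal-binding protein that also marks Muller glia, fell by 0.36 ± 0.06 (adjusted p 1.8e-04), and Rdh8, the outer segment retinol dehydrogenase, rose by 0.35 ± 0.09 (adjusted p 0.00534). Of 16 rod metabolism and calcium genes, 4 were higher and 0 lower. Slc2a1, the glucose transporter, rose by 0.72 ± 0.05 (1.65-fold, adjusted p 7.4e-09), Bsg, the basigin of monocarboxylate transporters, by 0.40 ± 0.04 (adjusted p 1.5e-06), and Elovl4, an elongase of very long fatty acids, by 0.16 ± 0.05 (adjusted p 0.0367). The Elovl4 call ended without normoxic replicate 1, 2 or 3 or OIR replicate 1, 2, 3, 5 or 6 (adjusted p up to 0.0945). Slc2a1 and Bsg are also expressed in glia, endothelium and pigment epithelium, so these values are not specific to rods. Of the genes named from the 6 lists, Mef2d (adjusted p 0.177), Ift140 (adjusted p 0.321), Rdh8 (adjusted p 0.371), Elovl4 (adjusted p 0.667) and Arr3 did not pass within numbers 4 to 6.

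**Figure D5:**
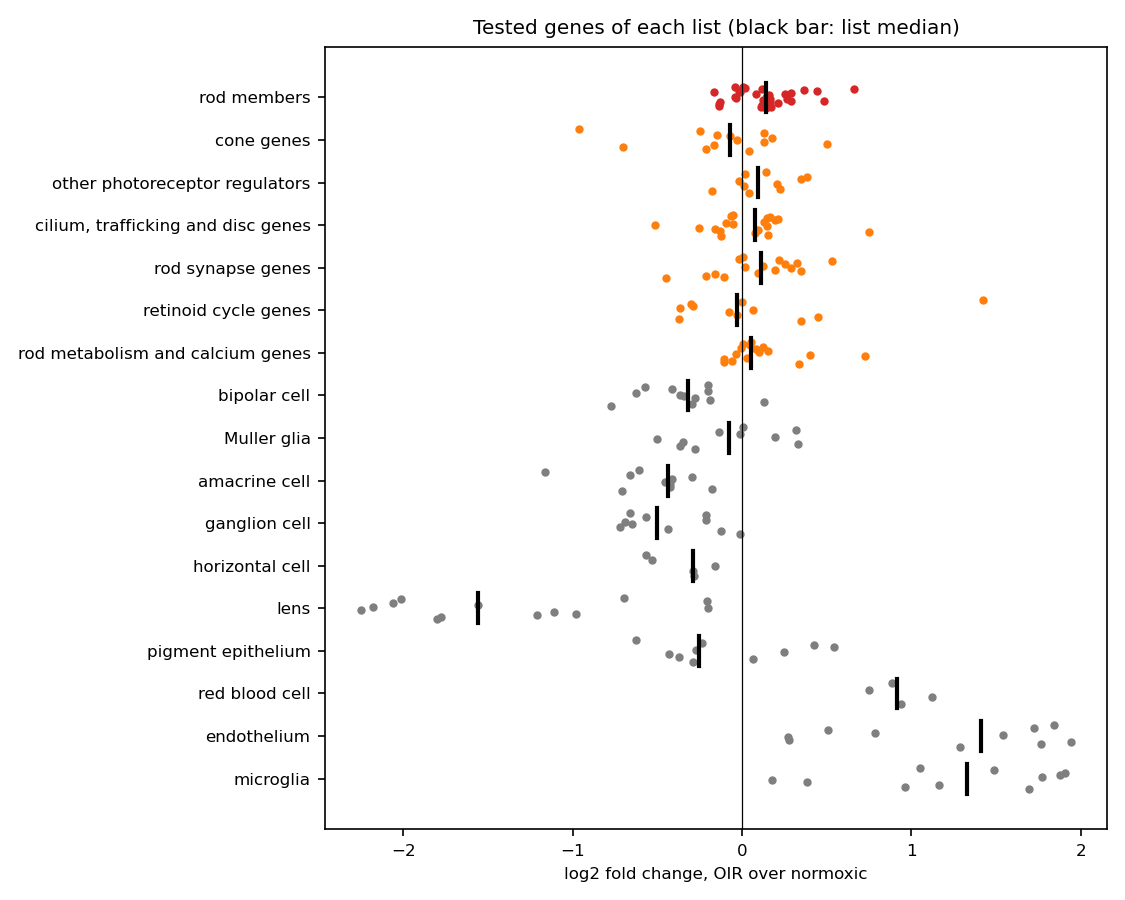
Log2 fold change of OIR over normoxic (x axis) for every tested gene of the rod members, the 6 lists of other photoreceptor genes and the 10 lists of markers of other cells (rows), with a black bar at each list's median. The rod members centre on 0.14 and lie between -0.16 and 0.66, the amacrine markers centre on -0.44 and the endothelial markers on 1.41.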

How the data were processed

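RNA of 12 retina libraries, 6 normoxic and 6 OIR, was captured with oligo-dT. The authors deposited, per the file headers, whole-number counts per gene and FPKM side by side in 1 table. Trimmomatic, HISAT2 2.0.5, HTSeq and build GRCm39 are named per the submitters' processing notes, without roles or order. For the annotation release and the strand setting, nothing is given in the sources used here. FPKM rests on a gene length that was below the table's length column for 29 members and equal to it for 7. It was therefore used only to order levels between genes and in the alternatives that name FPKM. Library totals ran from 17361979 to 21594618 counts and TMM factors from 0.974 to 1.01. No 2 libraries of a group matched within counting noise (3.06 to 15.6 chi-square units per degree of freedom), so none was merged.

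The titles gave each sample's group and replicate number. Counts were tested with edgeR 4.0.16 in R 4.3.3: filterByExpr (minimum count 10, total 15), TMM, the quasi-likelihood test on the group, and Benjamini-Hochberg adjustment over all 18275 tested genes, with a threshold of 0.05. Adjusted p-values are from this test unless a set, a covariate, a block or a left-out library is named, which were fitted and adjusted separately (18550 genes for numbers 1 to 3, 18377 for 4 to 6). A positive log2 fold change means higher in OIR. The test was checked on simulated counts. These held no difference between numbers 1 to 3 and 4 to 6, so the check does not cover that spread. Levels are CPM after TMM. Alternatives were median-of-ratios factors, library totals, no filter, an FPKM minimum of 1, DESeq2 1.42.0, limma 3.58.1 on log2(FPKM + 1) of the authors' values and with 0.1 added, blocks, a lens covariate, subsets and each library left out. Promoter matches and partner ratios are descriptions.

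The members, the 6 lists of photoreceptor genes (cone, regulators, cilium, synapse, retinoid cycle, metabolism) and the 10 marker lists (bipolar, Muller, amacrine, ganglion, horizontal, lens, pigment epithelium, red blood cell, endothelium, microglia) were chosen with earlier results of these data known. Full values are given for members past the threshold and for Gnat1, Gngt1 and Pde6g. Of each photoreceptor list the 3 genes with the smallest adjusted p are named, except 1 retinoid cycle gene that is not reported here, and further genes named were chosen after their values were seen. Promoters of 7 members were not used here.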

Additional observations from a re-analysis of the deposited data

Results flagged for a closer look

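In 2 of the 70 groups of 6 libraries checked (35 members in 2 groups), 1 library lay far from the others by Dixon's ratio at the 95% level, where chance gives about 5% of groups. Prph2 was at 5144 CPM in OIR replicate 6 and at most 4642 CPM in the other OIR libraries, a gap of 0.674 of the group's range. Without that library the Prph2 call ended. Rp1 was at 1924 CPM in OIR replicate 2 and at most 1734 CPM in the others, a gap of 0.699 of the range, and the Rp1 call held without it.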

How the results depend on the processing

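All 16 members past the threshold kept their sign under all 24 alternatives, and 7 of them kept the call with each of the 12 libraries left out in turn (Gngt1, Slc24a1, Rp1, Cdhr1, Rbp3, Impg1 and Impg2). The member count of 16 (45.7%, against 31.0% of all genes) ran from 10 to 18 (28.6% to 51.4%, against 27.5% to 31.8%) with 1 library left out, with 10 without normoxic replicate 2 and 10 without normoxic replicate 3. With the lens covariate 2811 genes, 2 members and 12 genes of the other photoreceptor lists passed, against 5673, 16 and 33. Within replicate numbers 1 to 3, 7226 genes (39.0%), 27 members (77.1%) and 53 list genes (62.4%) passed. Within numbers 4 to 6, 3671 genes (20.0%), 11 members (31.4%) and 29 list genes (34.1%) did. DESeq2 passed 17 members (48.6%, all genes 32.7%), limma on log2(FPKM + 1) 11 (31.4%, 30.2%), library totals 18 (51.4%, 31.2%) and no filter 14 (38.9%, 16.6%). Without the filter 34120 genes were tested and 5650 passed, so that share of all genes is not like the others. With a replicate block 20 members, 5675 genes and 33 list genes passed. The labels do not say that a number pairs samples, so the paired fit has no basis in them. Same-numbered libraries correlated in their deviations at -0.017 to 0.118, but a low correlation cannot decide whether samples were paired. A block for the sets of numbers 1 to 3 and 4 to 6 passed 24 members (68.6%, all genes 35.2%). Within a set the sign turned for 10 members, all among those not past the threshold (Abca4, Crb1, Guca1b, Gucy2f, Nr2e3, Rdh12, Rgs9, Rp1l1, Tulp1 and Unc119), and of these Nr2e3 passed with the turned sign (log2 fold change 0.16, numbers 1 to 3). It also turned for Arr3 within numbers 4 to 6 (0.12) and, among partner ratios, for Gnat1 to Gnb1 (-0.05) and Gngt1 to Gnb1 (-0.01) within numbers 1 to 3 and for Prph2 to Rom1 (0.00) and Gucy2e to Gucy2f (0.20) within numbers 4 to 6. The cause was not tested. The subsets hold 3 libraries a group, which limits their precision.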
